A study of Homo sapiens with 12 samples.

Results

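The 55 genes described here encode enzymes that place or remove methyl and acetyl groups on histones. They were taken by symbol from the 58233 genes of the expression table, and all 55 were found there. Of them, 30 are writers, namely 20 lysine methyltransferases, 3 arginine methyltransferases and 7 acetyltransferases. The remaining 25 are erasers, namely 17 lysine demethylases and 8 deacetylases. The enzymes of Polycomb repressive complex PRC2 are not on the list. SETD5 and KMT2E carry the domain of the methyltransferase family and are counted as writers here, although their own activity on histones is debated.

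Histone tails are modified on defined lysines and arginines, and the mark on a promoter or enhancer follows the balance between the enzyme that writes it and the enzyme that erases it. Methylation of H3K4 and acetylation accompany active genes, and methylation of H3K9 accompanies silent chromatin. Without ligand, the retinoic acid receptor holds corepressor complexes that contain the deacetylase HDAC3, and with ligand it recruits coactivators, among them the acetyltransferases EP300 and CREBBP.

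HL-60, an established cell line of human acute myeloid leukaemia, was kept in RPMI medium with 10% serum and treated for 3 h. The 4 groups were untreated cells, cells given 100 nM ATRA (all-trans retinoic acid, a ligand of the retinoic acid receptors), cells given 500 nM palbociclib (an inhibitor of the cell cycle kinases CDK4 and CDK6) and cells given both, called the combination. Each group had 3 libraries, all wild type and from the same line, and nothing in the labels says whether the 3 came from separate cultures, so the p-values measure the spread between these libraries, which may be technical. Values are RPKM (reads per kilobase of gene, scaled to sequencing depth) that the authors rounded to whole numbers, so 1 RPKM is the smallest step and levels can be compared between genes per length. The table gives no read depth.

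The labelled cell type and both agents were visible in the table. Of 8 myeloid precursor markers, 7 had a mean of at least 1 RPKM in each group and the list summed to between 1514 and 1998 RPKM in a library. All 5 erythroid and megakaryocytic markers were at 0, 4 of 6 lymphoid markers were at 0 and that list summed to between 5 and 11 RPKM. COL1A1 and EPCAM were at 0, while PECAM1, which blood cells also express, had a mean of 2 RPKM in untreated cells and 5 with ATRA. DHRS3, an early retinoid target, had a mean of 0.333 RPKM in untreated cells, 45 with ATRA, 0.667 with palbociclib and 46.7 with the combination. CCNE1, a target of the RB-E2F pathway that CDK4 and CDK6 control, had a mean of 14.3 RPKM in untreated cells and 5 with palbociclib. A fall was not particular to palbociclib. The log2 fold changes of CCNE1, E2F1 and MCM2 ran from -0.77 to -0.21 with ATRA and from -1.50 to -0.66 with palbociclib.

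The 3 treated libraries that carry replicate number 1 stood apart, and long enzyme genes were low in them. Among the 25 tested enzymes with an exonic length of at least 8 kb, the value of library 1 minus the mean of libraries 2 and 3 had a median of -0.41 with ATRA, -0.37 with palbociclib and -0.37 with the combination on the log2 scale, against 0.08 in untreated cells. In each treated group 21 of these 25 genes were below 0. Among the 21 shorter enzymes the medians lay between -0.07 and 0.00. KMT2C, the H3K4 methyltransferase with the greatest exonic length on the list, had 3 RPKM in library 1 and between 5 and 6 in libraries 2 and 3 of each treated group. Over all 1466 tested genes of this length, the treated libraries numbered 1 had medians from -0.21 to -0.18 against the mean of the untreated libraries. Results are therefore given with these 3 libraries and without them, and the part of gene length in each result was not tested.

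**Figure D1:**
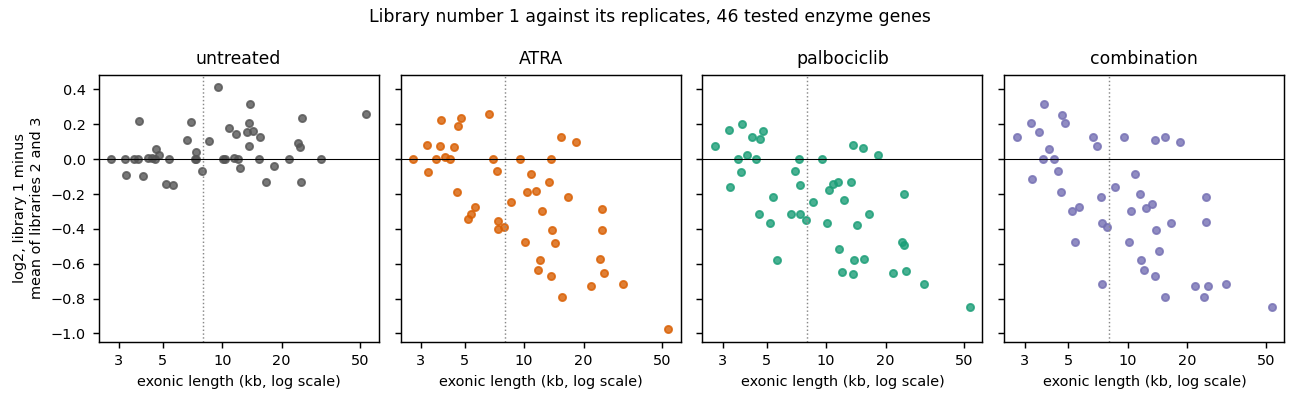
Difference between library number 1 and the mean of libraries 2 and 3 of the same group (log2 scale, y axis) against exonic length in kilobases (log axis), with 1 panel per group and 1 point per tested enzyme gene (n = 46). The dotted line marks 8 kb. In the 3 treated groups 21 of the 25 genes to its right lie below 0, and in untreated cells 4 do.

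Most of the enzymes were present at low to moderate levels. In untreated cells the highest were PRMT1, the main asymmetric arginine methyltransferase, at 92.0 ± 2.65 RPKM (SD, n = 3), the deacetylase HDAC1 at 61.7 ± 2.52, PRMT5, the main symmetric arginine methyltransferase, at 39.7 ± 1.53, and the H3K4 demethylase KDM1A at 36.7 ± 0.58. The libraries of these 4 genes did not overlap one another in untreated cells. HDAC3, the catalytic subunit of the NCoR and SMRT corepressor complexes, followed at 24.3 ± 0.58, and then KAT2A, the acetyltransferase of the SAGA complex, at 19.0 ± 1.73 and the H3K9 methyltransferase SETDB1 at 17.7 ± 0.58, whose libraries overlapped. The other 48 genes had untreated means from 0.333 to 16.0 RPKM.

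The test on a log scale used genes with at least 5 RPKM in at least 3 of the 12 libraries, and 46 of the 55 enzymes passed. The 9 that did not were the demethylases KDM4B, KDM4C, KDM6A and KDM7A, the deacetylases HDAC4, HDAC5 and HDAC7, the H3K9 methyltransferase EHMT1 and the acetyltransferase KAT2B. None of these 9 had more than 4 RPKM in any library. HDAC7, a class IIa deacetylase, had 3 RPKM in each untreated and each palbociclib library and 2 in each library with ATRA or the combination, a difference of 1 rounding step. KDM6B passed only through the treated libraries, since it had 3 RPKM in each untreated library, and so the filter itself favoured a rise of this gene. Without the libraries numbered 1 its rounded values were identical within each group, so its calls in that setting, which the counts below include, follow from the filter and the rounding and carry no weight.

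**Figure D2:**
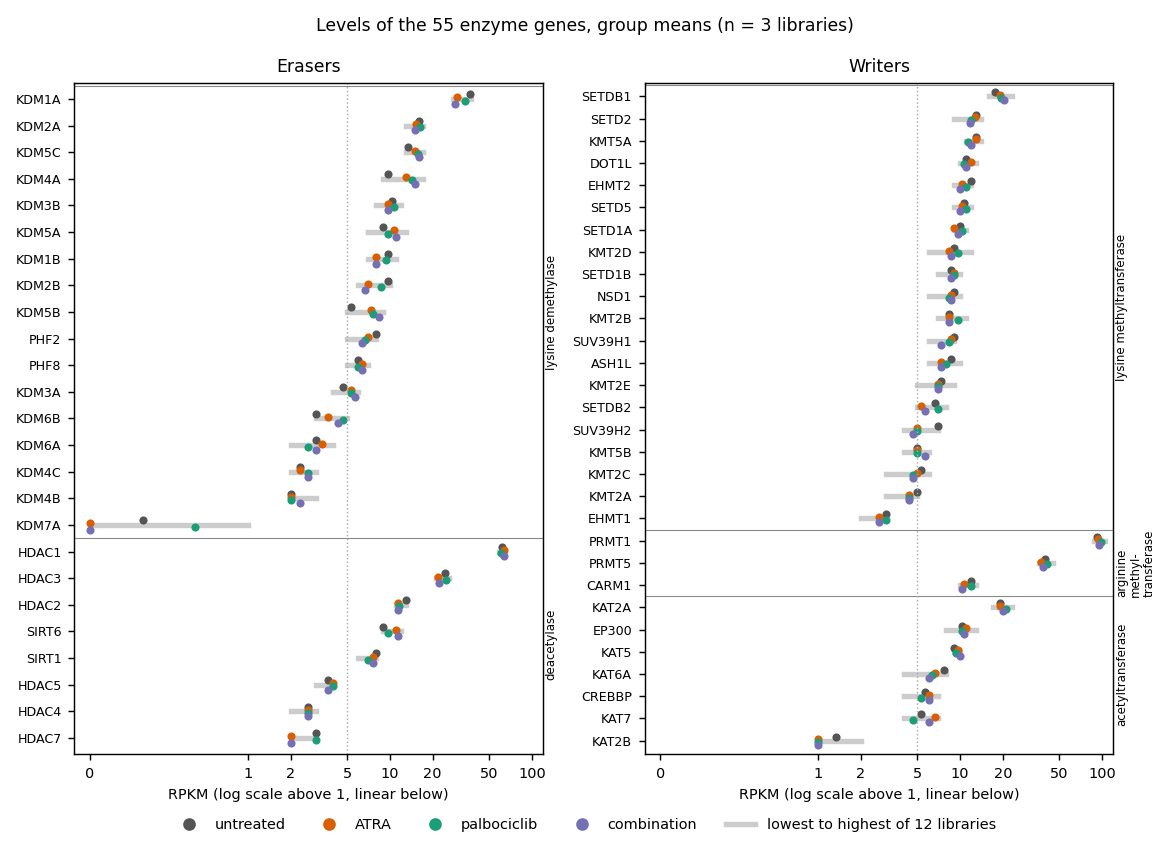
Mean RPKM of each of the 55 enzymes in the 4 groups (points, n = 3 libraries), on an x axis that is logarithmic above 1 and linear below, with erasers on the left and writers on the right. Grey bars run from the lowest to the highest of the 12 libraries and the dotted line marks 5 RPKM. PRMT1, HDAC1, PRMT5 and KDM1A lead, and the 4 group means of most genes lie close together.

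ATRA was compared with untreated cells first. Of the 46 tested enzymes, 4 fell and 1 rose at a limma adjusted p under 0.05 over all 7820 genes. That is 10.9% of the enzymes, while 20.3% of all tested genes were called, 8.71% higher and 11.6% lower. With each library centred on its median, 3 enzymes were called higher and 2 lower, and over all genes the split turned from 681 higher and 909 lower to 696 higher and 535 lower. The genes that fell were the demethylases KDM1A and KDM2B, the deacetylase HDAC2 and the H3K9 methyltransferase SUV39H2, and the gene that rose was the deacetylase SIRT6. In these bulk samples a lower level in every cell and a loss from some of the cells cannot be told apart.

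KDM1A (LSD1, ENSG00000004487), which demethylates H3K4 within the CoREST complex, had 36, 37 and 37 RPKM in untreated cells and 31, 29 and 29 with ATRA. Every ATRA library was below every untreated library. The log2 fold change was -0.31 (SE 0.05, 95% interval -0.41 to -0.20, limma adjusted p = 0.00145), and without the treated libraries numbered 1 it was -0.34 (adjusted p = 0.000287). After a correction of each library for gene length it was -0.22 with an adjusted p of 0.223, so that call was lost. KDM1A has an exonic length of 18.3 kb but was not low in the treated libraries numbered 1. Their log2 difference from the other libraries of the same group was 0.10 with ATRA, 0.02 with palbociclib and 0.10 with the combination. Whether the length correction suits this gene was not tested.

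KDM2B (ENSG00000089094), an H3K36 demethylase that binds unmethylated CpG islands and brings a Polycomb complex to them, had 10, 10 and 9 RPKM in untreated cells and 7 in each ATRA library. The groups did not overlap, and the log2 fold change was -0.46 (SE 0.08, limma adjusted p = 0.00256). The rounding of the deposited values alone leaves the ratio of the means between -0.65 and -0.29. The call held without the treated libraries numbered 1 (adjusted p = 0.0115) and after the length correction (adjusted p = 0.0407).

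SUV39H2 (ENSG00000152455), which writes trimethylation of H3K9 in constitutive heterochromatin, had 7 RPKM in all untreated libraries and 5 in all ATRA libraries. The log2 fold change was -0.48 (SE 0.09, limma adjusted p = 0.00319), and rounding alone leaves it between -0.74 and -0.24. It was called under both checks on the libraries numbered 1. HDAC2, a deacetylase of the SIN3, NuRD and CoREST complexes, had 13 RPKM in each untreated library and 12, 11 and 11 with ATRA, a log2 fold change of -0.20 (SE 0.06, limma adjusted p = 0.0461). Its groups did not overlap, but the distance was 1 to 2 rounding steps, and the call was lost after the length correction (adjusted p = 0.556). HDAC2, with an exonic length of 15.3 kb, was also not low in the treated libraries numbered 1 (0.12, 0.06 and 0.12 on the same scale).

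SIRT6 (ENSG00000077463), an NAD-dependent deacetylase of H3K9 and H3K56, had 9 RPKM in all untreated libraries and 11 in all ATRA libraries. The log2 fold change was 0.29 (SE 0.06, 95% interval 0.15 to 0.42, limma adjusted p = 0.00694), and it was 0.29 (adjusted p = 0.00522) without the treated libraries numbered 1. Rounding alone leaves the log2 ratio of the means between 0.14 and 0.44. SIRT6 was the only enzyme whose ATRA libraries all lay above the untreated ones, against 12.4% of all tested genes, and 5 enzymes had all ATRA libraries below, against 17.3%. The fifth of these was the H3K9 methyltransferase EHMT2 (G9a), with 12 RPKM in each untreated library, 10, 10 and 11 with ATRA and a log2 fold change of -0.22 (limma adjusted p = 0.0611).

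The upstream sequence of KDM1A, KDM2B, SUV39H2 and SIRT6 is shown because these were the enzymes with the lowest adjusted p with ATRA or the combination. Each is the part of the 250 bases before the RefSeq start (GRCh38.p14) that lies outside the gene's own annotated exons and short of any exon of a neighbouring protein-coding gene, written 5′ to 3′ on the strand of the gene. Capitals mark matches to the motifs searched on both strands, which were TTTCGCGC and TTTGGCGC for E2F, AGGTCA for retinoid receptors, alone or as a direct repeat spaced by 5 bases (each repeat also holds the single site), CCAAT for the CCAAT box and TGACGTCA for the cyclic AMP response element. The stretches lie at chr1:23019218-23019442 (plus strand, KDM1A), chr12:121581024-121581273 (minus strand, KDM2B), chr10:14878616-14878819 (plus strand, SUV39H2) and chr19:4182567-4182688 (minus strand, SIRT6).
KDM1A: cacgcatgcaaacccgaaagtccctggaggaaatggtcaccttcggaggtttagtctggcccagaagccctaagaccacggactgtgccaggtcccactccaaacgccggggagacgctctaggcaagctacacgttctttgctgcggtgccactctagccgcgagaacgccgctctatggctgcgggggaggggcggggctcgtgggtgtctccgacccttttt
KDM2B: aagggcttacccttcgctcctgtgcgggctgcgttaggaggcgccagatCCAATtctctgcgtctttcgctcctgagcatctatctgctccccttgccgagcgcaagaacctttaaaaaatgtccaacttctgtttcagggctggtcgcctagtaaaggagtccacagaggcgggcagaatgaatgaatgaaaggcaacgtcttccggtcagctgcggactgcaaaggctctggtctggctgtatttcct
SUV39H2: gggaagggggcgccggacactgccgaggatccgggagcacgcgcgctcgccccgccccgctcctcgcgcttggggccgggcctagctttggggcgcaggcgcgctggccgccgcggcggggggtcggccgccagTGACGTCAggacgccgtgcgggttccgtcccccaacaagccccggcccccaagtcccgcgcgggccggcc
SIRT6: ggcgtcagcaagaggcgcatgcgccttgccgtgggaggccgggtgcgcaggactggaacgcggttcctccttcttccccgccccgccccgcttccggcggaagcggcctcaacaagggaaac
The KDM2B stretch holds 1 CCAAT, a motif found in the 250 bases of 32.0% of all 35116 RefSeq promoters and of 17 of the 51 enzymes with a promoter in that table. Shares of all promoters count each listed promoter, while an enzyme counts once if any of its promoters had a match. The units thus differ. The SUV39H2 stretch, with 80.4% G and C, holds TGACGTCA, found in 1.65% of all promoters and in 1 other enzyme, PHF8. None of the motifs searched was in the stretches of KDM1A and SIRT6, and the CCAAT upstream of SIRT6 lies beyond the stretch shown. The single site AGGTCA was in the 250 bases of HDAC4, KDM6A and PRMT1 (12.1% of all promoters), and neither E2F motif was in those of any of the 51 enzymes (0.439% and 0.55% of all promoters). A match is a description of the letters only.

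Without the 3 treated libraries numbered 1, ATRA called 11 enzymes higher and 7 lower, against 32.3% of all tested genes (13.0% higher and 19.3% lower). The 11 were the demethylases KDM4A, KDM5A, KDM5B, KDM5C, KDM6B and PHF8, the deacetylase SIRT6, the methyltransferases SETDB1 and NSD1 and the acetyltransferases CREBBP and KAT7. PHF8 and NSD1 then had identical rounded values within each group, 1 step apart, so no weight is put on their calls. KDM5A, SIRT6, SUV39H2 and HDAC2 were then also identical within both groups, though more than 1 step apart. Their p-values in this setting thus rest on the spread of other groups and genes. The 7 were KDM1A, KDM2B, SUV39H2, HDAC2 and EHMT2 with the H3K9 methyltransferase SETDB2 and the deacetylase HDAC3. HDAC3 had 25, 24 and 24 RPKM in untreated cells and 24, 21 and 21 with ATRA, and its log2 fold change was -0.15 (limma adjusted p = 0.233) with all libraries and -0.21 (adjusted p = 0.00193) without library 1. KAT7 (HBO1), which acetylates H3K14, had 5, 6 and 5 RPKM in untreated cells and 6, 7 and 7 with ATRA, with a log2 fold change of 0.32 (adjusted p = 0.138) with all libraries and 0.39 (adjusted p = 0.0295) without library 1.

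**Figure D3:**
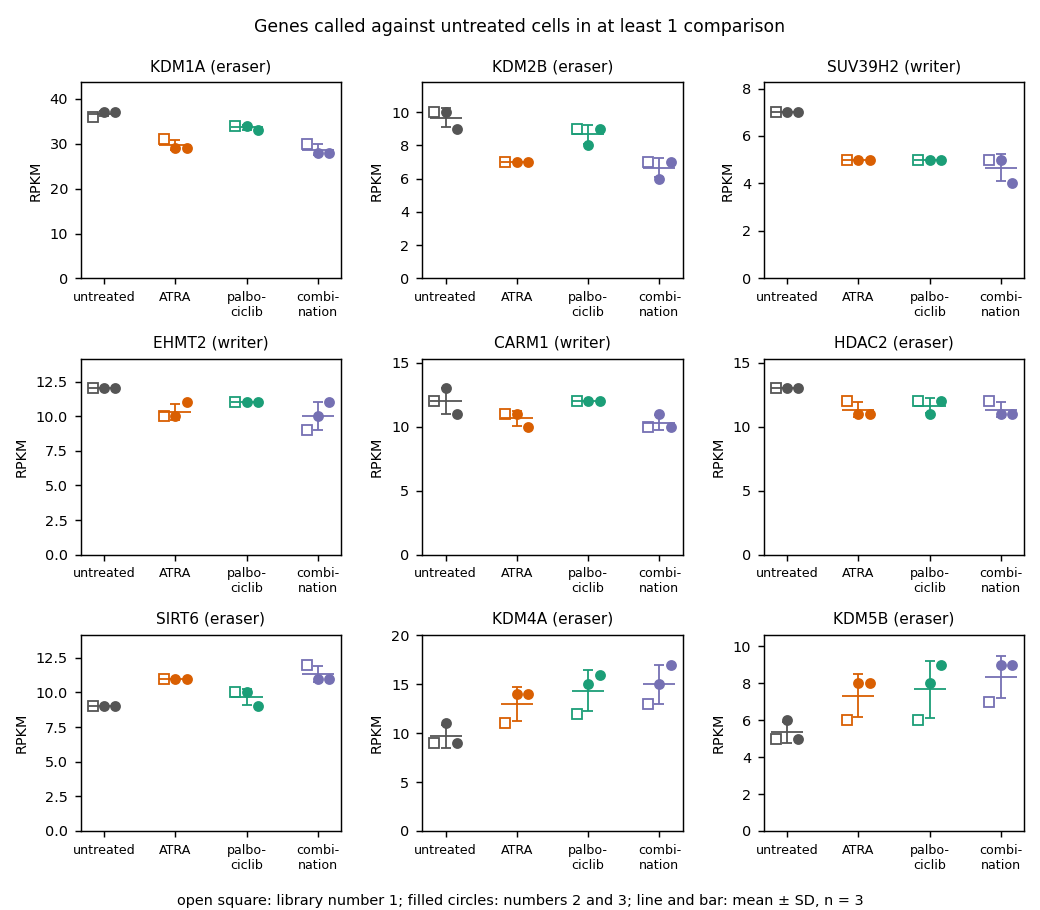
RPKM in every library of the 9 enzymes called in at least 1 comparison with untreated cells, with 1 panel per gene and y axes from 0. Open squares are the libraries numbered 1, filled circles numbers 2 and 3, and horizontal lines with bars the mean ± SD (n = 3). KDM1A, KDM2B and SUV39H2 sit lower with ATRA and the combination, SIRT6 sits higher, and KDM4A and KDM5B sit higher in treated libraries with number 1 as the lowest of each treated group.

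Palbociclib alone was compared with untreated cells in the same way, and 1 of the 46 enzymes was called, against 4.07% of all tested genes (0.908% higher and 3.16% lower). With median centring the split over all genes turned from 71 higher and 247 lower to 97 higher and 101 lower. SUV39H2 had 5 RPKM in each palbociclib library, below the 7 of each untreated library, and fell by 0.48 on the log2 scale (SE 0.09, limma adjusted p = 0.0123). Median centring ended this call (-0.40, adjusted p = 0.1). KDM1A had 34, 34 and 33 RPKM with palbociclib, all below the untreated libraries, with a log2 fold change of -0.12 (adjusted p = 0.222). In all, 5 enzymes had every palbociclib library below every untreated one, against 9.48% of all tested genes.

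The largest log2 fold changes with palbociclib were those of 3 demethylases. KDM6B (ENSG00000132510), which removes the trimethyl mark from H3K27, had 3 RPKM in each untreated library and 4, 5 and 5 with palbociclib. Its log2 fold change was 0.61 (SE 0.19, limma adjusted p = 0.114). KDM4A (ENSG00000066135), a demethylase of H3K9 and H3K36, had 9, 11 and 9 RPKM in untreated cells and 12, 15 and 16 with palbociclib, with a log2 fold change of 0.56 (SE 0.14, limma adjusted p = 0.0581). The palbociclib libraries of both genes lay above all untreated ones, as in 5.74% of all tested genes. KDM5B (ENSG00000117139), an H3K4 demethylase, had 5, 6 and 5 RPKM in untreated cells and 6, 8 and 9 with palbociclib, so the groups overlapped at 6, and its log2 fold change was 0.50 (SE 0.17, limma adjusted p = 0.14).

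In all 3 genes library 1 was the lowest of the palbociclib group. Without the treated libraries numbered 1, KDM4A (log2 fold change 0.68, limma adjusted p = 0.0163) and KDM5B (0.67, adjusted p = 0.0115) were called higher, together with the H3K4 demethylases KDM5A and KDM5C and with KDM6B, whose call carries no weight there. SUV39H2, KDM1A and HDAC2 were called lower then, and 8.17% of all tested genes were called (2.76% higher and 5.41% lower). The rounded values of KDM5A and SUV39H2 were identical within both groups in this setting, so their p-values rest on the spread of other groups and genes. After the length correction KDM4A, KDM5B, KDM5C and KDM6B (entered through the treated libraries) were called higher and SUV39H2 lower, against 5.05% of all tested genes. No acetyltransferase, arginine methyltransferase or deacetylase was called by limma with palbociclib and all libraries, with an unadjusted p under 0.05 for 1 deacetylase of 5 and for none of the 6 acetyltransferases and 3 arginine methyltransferases tested. Over all tested genes 17.4% had an unadjusted p under 0.05.

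The combination was compared with untreated cells next, and 9 enzymes were called, 3 higher and 6 lower. That is 19.6% of the 46, against 30.4% of all tested genes (12.7% higher and 17.7% lower). With median centring 5 enzymes were called higher and 3 lower, and the split over all genes turned from 996 higher and 1381 lower to 1152 higher and 793 lower. The 3 that rose were the erasers KDM4A, KDM5B and SIRT6. The 6 that fell were the erasers KDM1A, KDM2B and HDAC2 and the writers SUV39H2, EHMT2 and CARM1.

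KDM1A had 30, 28 and 28 RPKM with the combination, all below the untreated libraries, and fell by 0.35 on the log2 scale (SE 0.05, limma adjusted p = 0.000364). KDM2B had 7, 6 and 7 RPKM and a log2 fold change of -0.53 (SE 0.08, limma adjusted p = 0.000665). SUV39H2 had 5, 5 and 4 RPKM and a log2 fold change of -0.58 (SE 0.09, limma adjusted p = 0.000617). These 3 were also the only enzymes called in any comparison at the stricter adjusted p of 0.001, which 8.04% of all tested genes passed for the combination, 4.72% for ATRA, 0.499% for palbociclib and 3.11% for the combination against palbociclib.

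EHMT2, which writes the dimethyl mark on H3K9, had 9, 10 and 11 RPKM with the combination and a log2 fold change of -0.27 (SE 0.07, limma adjusted p = 0.0188), with no overlap with the 12 RPKM of each untreated library. HDAC2 had 12, 11 and 11 RPKM, as with ATRA, and a log2 fold change of -0.20 (adjusted p = 0.0342). CARM1 (PRMT4), an arginine methyltransferase that acts with acetyltransferases as a coactivator, had 12, 13 and 11 RPKM in untreated cells and 10, 11 and 10 with the combination. Its groups touched at 11 RPKM, its log2 fold change was -0.21 (adjusted p = 0.0484), and the call was lost without the treated libraries numbered 1 (adjusted p = 0.121). After the length correction KDM1A (-0.25, adjusted p = 0.128), EHMT2 (-0.17, adjusted p = 0.0807), HDAC2 (-0.10, adjusted p = 0.579) and CARM1 (-0.17, adjusted p = 0.118) were no longer called, while KDM2B and SUV39H2 were.

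SIRT6 had 12, 11 and 11 RPKM with the combination and rose by 0.33 on the log2 scale (SE 0.06, limma adjusted p = 0.00213). KDM4A had 13, 15 and 17 RPKM, all above the untreated libraries, and rose by 0.63 (SE 0.14, limma adjusted p = 0.00777). KDM5B had 7, 9 and 9 RPKM, also all above, and rose by 0.63 (SE 0.17, limma adjusted p = 0.017). For KDM4A and KDM5B library 1 was again the lowest of the group, and without the libraries numbered 1 the log2 fold changes were 0.72 (adjusted p = 0.00279) and 0.75 (adjusted p = 0.0016). Non-overlapping groups were found for 4 enzymes higher, against 15.3% of all tested genes, and for 7 lower, against 20.6%. The fourth of the higher ones was KAT5 (TIP60), an acetyltransferase of H4, with 9 RPKM in all untreated libraries and 10 in all combination libraries, a difference of 1 rounding step (log2 fold change 0.15, adjusted p = 0.101).

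Without the 3 treated libraries numbered 1 the combination called 10 enzymes higher and 8 lower, against 40.9% of all tested genes (16.9% higher and 24.1% lower). The 10 were KDM4A, KDM5A, KDM5B, KDM5C, KDM6B, PHF8, SIRT6, SETDB1, NSD1 and CREBBP. The 8 were KDM1A, KDM2B, SUV39H1, SUV39H2, EHMT2, HDAC2, HDAC3 and PHF2. PHF8, NSD1 and PHF2 then had identical rounded values within each group, 1 step apart, so no weight is put on their calls. SIRT6 and HDAC2 were then also identical within both groups, though more than 1 step apart. KDM5A had 9 RPKM in each untreated library, 8, 12 and 12 with ATRA, 7, 11 and 11 with palbociclib and 8, 12 and 13 with the combination. Library 1 of each treated group was thus below the untreated libraries and the other 2 were above them.

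**Figure D4:**
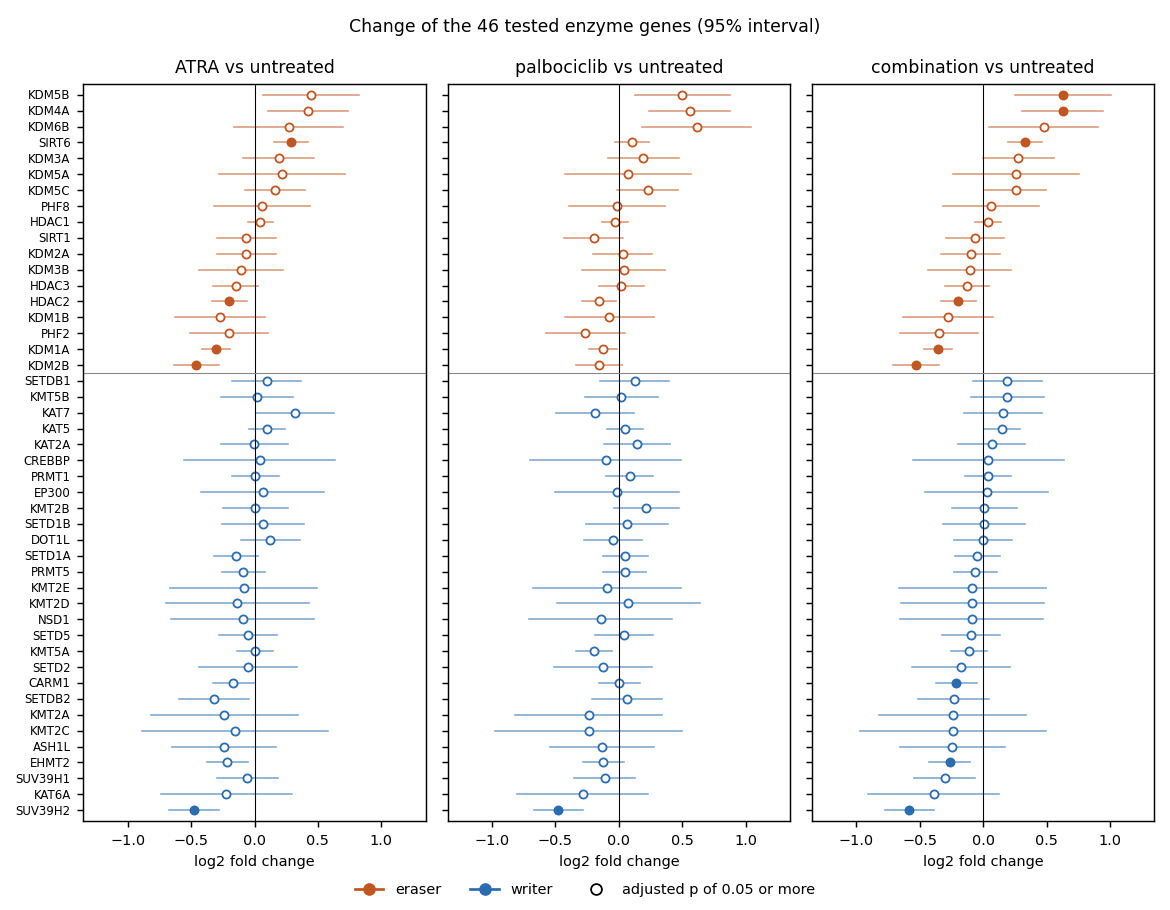
Log2 fold change of the 46 tested enzymes against untreated cells (x axis, 1 panel per treatment) with 95% intervals from limma, erasers in orange above the line and writers in blue below it. Filled points passed an adjusted p of 0.05 and open points did not. The 3 filled points above 0 with the combination are the erasers KDM5B, KDM4A and SIRT6, and no writer has a filled point above 0 in any panel.

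Adding palbociclib to ATRA was examined by comparing the combination with ATRA alone. The study names KDM6B for this comparison on these same samples, so its values here are not independent evidence. None of the 46 enzymes was called by limma, against 0.115% of all tested genes. At an unadjusted limma p under 0.05 there was 1, SUV39H1, against 3.67% of all tested genes. With the replicate number as a block, which pairs the treated libraries, none was called either, against 0.652% of all genes, and none in a fit of the 9 treated libraries alone with that block, against 2.4%.

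KDM4A had 11, 14 and 14 RPKM with ATRA and 13, 15 and 17 with the combination, so each combination library was above the ATRA library of its number while the groups overlapped. Its log2 fold change was 0.21 (95% interval -0.11 to 0.52, limma adjusted p = 1, and 0.588 with the block). KDM5B had 6, 8 and 8 RPKM with ATRA and 7, 9 and 9 with the combination, 1 step more in each pair, and a log2 fold change of 0.19 (95% interval -0.19 to 0.56, adjusted p = 1, and 0.727 with the block). KDM6B had 3, 4 and 4 RPKM with ATRA and 3, 5 and 5 with the combination. Its log2 fold change was 0.21 (95% interval -0.22 to 0.64, limma adjusted p = 1). Without the libraries numbered 1, which left 2 identical values in each group 1 rounding step apart, limma called it, as it did 0.716% of all genes, and no weight is put on that call.

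PHF2, which recognises methylated H3K4 and is counted among the H3K9 demethylases, had 8 RPKM in each untreated library, 6, 7 and 8 with ATRA, 6, 7 and 7 with palbociclib and 5, 7 and 7 with the combination. Its log2 fold change between the combination and ATRA was -0.15 (95% interval -0.46 to 0.16, limma adjusted p = 1), and it was 0.01 when the combination library numbered 1 was left out. KAT2B (PCAF), an acetyltransferase of the same family as KAT2A, had 2, 1 and 1 RPKM in untreated cells and 1 RPKM in each of the 9 treated libraries, so the rounded table showed no difference between ATRA and the combination and the gene was not tested. SUV39H1, the paralogue of SUV39H2, had 9, 9 and 8 RPKM with ATRA and 8, 8 and 6 with the combination, with a log2 fold change of -0.25 (95% interval -0.49 to -0.01, limma adjusted p = 1). No enzyme had all combination libraries above the ATRA ones, against 0.87% of all tested genes, and 1 had them all below, against 2.52%, namely the H4K20 methyltransferase KMT5A with 13 RPKM in each ATRA library and 12 in each combination library.

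Adding ATRA to palbociclib gave 3 called enzymes when the combination was compared with palbociclib alone, against 12.5% of all tested genes (5.86% higher and 6.64% lower). SIRT6 had 10, 10 and 9 RPKM with palbociclib and 12, 11 and 11 with the combination and was higher by 0.23 on the log2 scale (SE 0.06, limma adjusted p = 0.0305). KDM1A was lower, with a log2 fold change of -0.23 (SE 0.05, limma adjusted p = 0.0102), as was KDM2B, which had 9, 8 and 9 RPKM with palbociclib, with -0.38 (SE 0.08, limma adjusted p = 0.0111). For all 3 genes the groups did not overlap, and 2 enzymes in all lay entirely higher (8.26% of all genes) and 3 entirely lower (9.86%). The calls were not stable. The length correction ended those of KDM1A (adjusted p = 0.349) and KDM2B (0.0872), median centring those of SIRT6 (0.175) and KDM1A (0.132), and a fit of the compared groups only those of SIRT6 (0.12) and KDM2B (0.0698). SIRT6 also lost its call without palbociclib replicate 3 (0.0956) and without each combination library in turn (0.0501 to 0.08).

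With the replicate number as a block 6 enzymes were called in this comparison, against 23.5% of all tested genes (10.1% higher and 13.4% lower). KAT7, with 4, 5 and 5 RPKM with palbociclib and 5, 7 and 6 with the combination, was then called higher (log2 fold change 0.35, adjusted p = 0.0126, against 0.149 without the block). HDAC3, with 26, 24 and 24 RPKM with palbociclib and 25, 21 and 21 with the combination, was called lower (-0.15, adjusted p = 0.0445), and so was CARM1, with 12 RPKM in each palbociclib library (-0.22, adjusted p = 0.0184). Without the libraries numbered 1, KDM5A and SIRT6 were called higher and KDM1A, KDM2B and HDAC3 lower, against 17.7% of all genes. HDAC3 then had identical rounded values within both groups.

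The same question was asked of ATRA in 2 comparisons that share no library, ATRA against untreated cells and the combination against palbociclib. The log2 fold changes of 37 of the 46 enzymes (80.4%) had the same sign in both, against 75.7% of all 7820 genes. KDM1A (-0.31 and -0.23), KDM2B (-0.46 and -0.38) and SIRT6 (0.29 and 0.23) were called in both with all libraries, the second calls with the losses given above. SUV39H2 was called with ATRA (-0.48) and had a log2 fold change of -0.10 between the combination and palbociclib (95% interval -0.30 to 0.09, limma adjusted p = 0.566). For palbociclib, given alone or on top of ATRA, 31 of the 46 enzymes (67.4%) had the same sign, against 61.2% of all genes.

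Whether both agents acted additively on the log2 scale was tested by subtracting the palbociclib effect in cells without ATRA from that in cells with it, and a departure was called for none of the 46 enzymes by limma. At an unadjusted p under 0.05 there was 1, SUV39H2, with a difference of 0.37 (95% interval 0.10 to 0.65, adjusted p = 1). It was lower than in untreated cells by 2 RPKM with either agent alone and by 2 or 3 RPKM with both. None of the 7820 tested genes was called, and 3.02% had an unadjusted p under 0.05. With the block none was called. Without the libraries numbered 1 the only enzyme called was KDM6B (0.422% of all genes were called), again from groups of identical rounded values. KDM6B had 5 RPKM in both of the remaining palbociclib libraries and both of the remaining combination libraries, 4 in those of ATRA and 3 in those of untreated cells.

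Writers and erasers were then set side by side. Of 28 tested writers, 1 was called with ATRA, 1 with palbociclib and 3 with the combination, all of them lower, which is 3.57%, 3.57% and 10.7% of the writers. Of 18 tested erasers, 4 were called with ATRA (1 higher, 3 lower), none with palbociclib and 6 with the combination (3 higher, 3 lower), which is 22.2%, 0.0% and 33.3%. Over all tested genes the shares were 20.3%, 4.07% and 30.4%. With all libraries the calls above 0 were thus erasers, but without the treated libraries numbered 1 there were 4 writers called higher with ATRA and 3 with the combination. Both counts include NSD1, whose rounded values were identical within each group and 1 step apart, so its call carries no weight. The median log2 fold change of writers was -0.05 with ATRA, -0.03 with palbociclib and -0.09 with the combination, and that of erasers was -0.01, 0.02 and -0.01. The medians of all 7820 genes were -0.01, 0.00 and -0.01. Without the treated libraries numbered 1 the writers' medians were 0.03, 0.07 and 0.00 and the erasers' medians 0.03, 0.10 and 0.02, so the sign of the writers' median rested on these libraries. Fold changes of single genes are not replicates, and no test of writers against erasers was run.

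Summed over all 30 writers, a library held 381 ± 12 RPKM in untreated cells (SD, n = 3), 372 ± 15.0 with ATRA, 383 ± 16.5 with palbociclib and 371 ± 15.6 with the combination. The 25 erasers summed to 274 ± 6.51, 270 ± 11.5, 279.7 ± 14.6 and 273 ± 12.2 RPKM. The ratio of both sums was 1.39 ± 0.07 in untreated cells, 1.38 ± 0.0045 with ATRA, 1.37 ± 0.02 with palbociclib and 1.36 ± 0.02 with the combination. The ranges of the 4 groups overlapped in all 3 measures. Between treated libraries of the same number, the writers' sum was lower with ATRA than with palbociclib by 10, 12 and 13 RPKM and lower with the combination than with palbociclib by 12, 7 and 18. The erasers' sum was lower by 6, 12 and 11 and by 3, 10 and 6 RPKM, and combination libraries exceeded ATRA libraries by 3, 2 and 5. The ratio of both sums and the writers' sum between the combination and ATRA had differences of both signs among the 3 pairs. No test was run on the sums. PRMT1 and HDAC1 made up much of these sums.

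**Figure D5:**
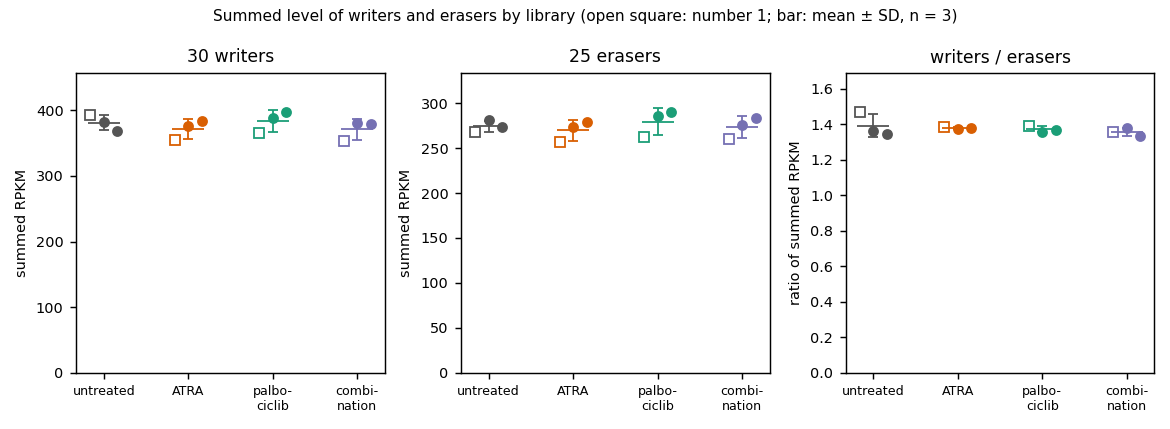
Summed RPKM of the 30 writers, of the 25 erasers and the ratio of both (y axes from 0) in each of the 12 libraries by group. Open squares are libraries numbered 1, filled circles numbers 2 and 3, lines with bars the mean ± SD (n = 3). The groups overlap in each panel, and number 1 is the lowest treated library in both sums.

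By residue the groups were small. Over all tested genes 20.3% were called with ATRA, 4.07% with palbociclib and 30.4% with the combination (11.6%, 3.16% and 17.7% lower). Counts among 5 genes are thus no result about a residue. The 5 tested erasers of H3K4 had 1 called with ATRA (KDM1A, lower) and 2 with the combination (KDM1A lower and KDM5B higher), and the calls of KDM1A were lost after the length correction. KDM5C had 13, 14 and 13 RPKM in untreated cells and 14, 17 and 17 with the combination (log2 fold change 0.26, limma adjusted p = 0.1, and 0.00169 without library 1). None of the 6 tested writers of H3K4, KMT2A, KMT2B, KMT2C, KMT2D, SETD1A and SETD1B, was called in any of these 3 comparisons, and their log2 fold changes lay between -0.24 and 0.21. Among the 5 tested writers of H3K9, 1 was called with ATRA, 1 with palbociclib and 2 with the combination, all lower, and SETDB1 was above 0 in all 3 comparisons at 0.10, 0.13 and 0.19 without being called. Without the treated libraries numbered 1 SETDB1 was called higher with ATRA (0.21, adjusted p = 0.044) while SUV39H2, EHMT2 and SETDB2 were called lower. Of the 5 tested erasers of H3K9 only KDM4A was called, with the combination. Without the libraries numbered 1 PHF8 was also called higher there and PHF2 lower, both from rounded values identical within each group and 1 step apart. The 3 writers of H3K36, SETD2, NSD1 and ASH1L, and the H3K79 methyltransferase DOT1L were not called with all libraries. Without the libraries numbered 1 NSD1 was called higher with ATRA and the combination, a call that carries no weight. Of the erasers of H3K36, KDM2B was called lower with ATRA and with the combination, and KDM2A was not called.

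By family, the 13 tested lysine demethylases had 2 called with ATRA and 4 with the combination, which is 15.4% and 30.8% against 20.3% and 30.4% of all tested genes. The 5 tested deacetylases had 2 called with each. The 19 tested lysine methyltransferases had 1, 1 and 2 called with ATRA, palbociclib and the combination. With palbociclib 4.07% of all tested genes were called. Of the 6 tested acetyltransferases none was called in these comparisons, with 1 at an unadjusted p under 0.05 with ATRA and 1 with the combination. Such a p was reached by 33.1% of all tested genes with ATRA and by 40.5% with the combination. EP300 and CREBBP, the acetyltransferases that the retinoic acid receptor recruits, had log2 fold changes of 0.07 and 0.04 with ATRA, and neither was called. EP300 had 8, 12 and 13 RPKM with ATRA and CREBBP had 4, 7 and 7, with library 1 the lowest in both. Without the treated libraries numbered 1 the log2 fold change with ATRA was 0.31 for CREBBP, which was then called (adjusted p = 0.0341), and 0.28 for EP300 (adjusted p = 0.0817). PRMT1 had 103, 87 and 88 RPKM with ATRA, 105, 92 and 96 with palbociclib and 104, 91 and 89 with the combination, against 93, 89 and 94 in untreated cells, so here library 1 was the highest of each treated group. HDAC1 stayed between 59 and 65 RPKM in the 12 libraries and was not called.

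Other enzymes of the same families and the subunits of their complexes were looked at as lists. Of 40 further enzymes 20 were tested, and 1 was called higher and 3 lower with ATRA, none higher and 1 lower with palbociclib, and 2 higher and 8 lower with the combination. These are 20%, 5% and 50% of the list, against 20.3%, 4.07% and 30.4% of all tested genes. The largest called change with ATRA was that of NCOA3, a coactivator of nuclear receptors with acetyltransferase activity, with means of 23.3 RPKM in untreated cells and 57.7 ± 17.9 with ATRA (log2 fold change 1.25, limma adjusted p = 0.0125). The arginine methyltransferase PRMT6 fell from a mean of 29.0 RPKM to 20.3 with ATRA (-0.51, limma adjusted p = 0.000252) and to 19.7 with the combination. NSD2, an H3K36 methyltransferase, fell from 9.67 RPKM to 7 with palbociclib (-0.47, adjusted p = 0.0426) and to 6.33 with the combination (-0.60, adjusted p = 0.00205).

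Of 51 complex subunits 43 were tested, and 3 were called higher and 9 lower with ATRA, 1 higher and 4 lower with palbociclib, and 3 higher and 12 lower with the combination. These are 27.9%, 11.6% and 34.9% of the list, against 20.3%, 4.07% and 30.4% of all tested genes. SAP30, a subunit of the SIN3 deacetylase complex with HDAC1 and HDAC2, fell from a mean of 26.7 RPKM to 13.3 with ATRA (-0.997, limma adjusted p = 5.73e-05) and to 11.7 with the combination (-1.19, adjusted p = 1.24e-05). WDR5, a core subunit of the H3K4 methyltransferase complexes, fell from 44.3 RPKM to 33.3 with ATRA (-0.42, adjusted p = 0.0145) and to 30 with the combination (-0.57, adjusted p = 0.00182). DMAP1, a subunit of the KAT5 complex, rose from 4 RPKM in each untreated library to 6 in each library with ATRA and with the combination (0.57, adjusted p = 0.00111 for ATRA). DMAP1 passed the filter only through treated libraries, and its rounded values were identical within these groups. Its calls, which the counts above include, therefore carry no weight. TADA3, a subunit of the KAT2A complexes, rose from 13.3 RPKM to 16.7 with ATRA (0.32, adjusted p = 0.00694), 16.7 with palbociclib (adjusted p = 0.0272) and 18.7 with the combination (0.49, adjusted p = 0.000384).

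In GENCODE v44, 29 of the 55 enzymes share exonic bases with a gene on the opposite strand, among them KDM2B with RNF34, SUV39H2 with DCLRE1C, CARM1 with YIPF2, EHMT2 with EHMT2-AS1, HDAC2 with HDAC2-AS2 and KDM4A with KDM4A-AS1. Whether the libraries kept the strand is not given in the sources used here, and without strand the reads of such partners cannot be told apart. KDM1A, KDM5B, KDM5C, KDM6B, PHF2 and SIRT6 share none.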

How the data were processed

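HL-60 RNA was sequenced as polyA-selected TruSeq libraries, 3 per group. Alignment by the authors used HISAT2 against hg38, and HTSeq gave reads per gene, per the labels and the study's methods. Versions and annotation are not given in the sources used here. The deposited values are RPKM that the authors rounded to whole numbers, so they are treated as a score and not as counts. The study's methods give an average read number per sample, but the table holds no total per library, so no count model or counting interval was used. Library sums of the values lay between 358455 and 390247, and between 13127 and 13447 genes were above 0.

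Values were tested as log2(value + 0.1) with limma 3.58.1 (R 4.3.3, trend on mean level, 1 mean per group, all 12 libraries), over 7820 of 58233 genes with at least 5 in at least 3 libraries. A fold change is on this scale and understates that of low genes. P-values were adjusted by Benjamini-Hochberg over all tested genes, and a gene was called at 0.05, two-sided. An exact permutation test of 3 against 3 libraries cannot go below 0.10 and was not used. On simulated data for ATRA against untreated, limma recovered 86 of 200 genes changed by 0.5 (3 false calls among 7639 genes), 190 changed by 1 (7 among 7651) and 199 changed by 2 (16 among 7636). At an adjusted p of 0.001 it recovered 4 of the 200 genes changed by 0.5. The simulated noise was independent between genes and libraries. It held neither the deviation shared by same-numbered libraries nor the shift along gene length. Its false calls therefore do not give the error rate of the real libraries.

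Same-numbered libraries of the treated groups deviated together (r from 0.438 to 0.908 over genes), so the numbers pair these groups. Untreated libraries did so weakly (r from 0.045 to 0.367), and the labels give no shared day or batch. Pairs of libraries of 1 group held equal values in 9.5% to 23.5% of 4143 genes, so none was a duplicate. Exonic length, strand and overlaps came from GENCODE v44, and promoters from RefSeq (GRCh38.p14). The length correction subtracted a lowess curve of each library's deviation on log10 length (span 0.3, 7795 genes).

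The members, lists, filter and threshold were chosen with earlier results of these data known. All 55 members could be named, with every library's value for those called in any comparison and for KDM4A, KDM5B, KDM6B, KAT2B and PHF2, which were picked after reading a figure of the study on these samples and support nothing by themselves. From each further list at most 4 called genes with the largest changes were named. Alternatives were another pseudocount, filters and scalings, a stricter threshold, fits of the compared groups only, a replicate block and each library left out.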

Additional observations from a re-analysis of the deposited data

How the results depend on the processing

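Counts below are numbers of the 46 tested enzymes called, higher and then lower, beside 1 and 4 for ATRA, 0 and 1 for palbociclib and 3 and 6 for the combination, each against untreated cells, 1 and 2 for the combination against palbociclib, and 0 and 0 both for the combination against ATRA and for additivity. At an adjusted p of 0.001 they were 0 and 0 (ATRA), 0 lower (palbociclib), 0 and 3 (combination) and 0 and 0 (combination against palbociclib). With a filter of at least 10 RPKM, which tests fewer enzymes, 1 was lower with ATRA, 0 with palbociclib and 3 with the combination, and 0 and 1 were called against palbociclib. Median centring gave 3 and 2, 1 and 0, 5 and 3, and 0 and 1. Of all genes it called 15.7%, 2.53%, 24.9% and 10.3% in these comparisons. Fitting only the groups compared gave 1 higher with palbociclib and 0 and 1 for the combination against palbociclib.

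The replicate block gave 4 and 8 with ATRA, 4 higher with palbociclib, 7 and 10 with the combination, and 2 and 4 for the combination against palbociclib, while 35.4%, 13.6%, 45.2% and 23.5% of all genes were called in these comparisons. Untreated libraries share only a number with the treated ones, and the block changed no count for the combination against ATRA or for additivity.

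The following alternatives were chosen after seeing the data. Without the treated libraries numbered 1 the counts were 11 and 7 (ATRA), 5 and 3 (palbociclib), 10 higher (combination), 1 higher (against ATRA), 2 higher (against palbociclib) and 1 lower (additivity), where the calls against ATRA and for additivity are KDM6B with identical rounded values, and the writers' median with palbociclib was 0.0673. Without number 1 in all 4 groups they were 8, 6, 8, 1 and 2 higher in the same 5 comparisons and 2 lower for additivity, with writers' medians of 0.0717 (ATRA), 0.102 (palbociclib) and 0.0459 (combination). The length correction gave 5 and 2, 4 higher, 7 and 3, and, against palbociclib, 2 and 0. Of all genes it called 21.7%, 5.05%, 32.8% and 13.3% in these comparisons. With the replicate block as well it gave 9, 5, 11 and 2 higher. The 9 treated libraries with the block gave 4 and 8 for the combination against palbociclib.

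Leaving out 1 library at a time gave 1 to 3 higher and 3 to 5 lower with ATRA, 0 to 1 higher with palbociclib (writers' median -0.11 to 0.0673), 2 to 5 higher and 4 to 6 lower with the combination, and 0 to 1 higher against palbociclib. Shares of all genes were not counted for these fits, the filter at 10 RPKM or the compared groups only. They were also not counted without number 1 in all 4 groups or for the length correction with the block. These counts are thus no result about the enzymes. The value of PHF2 between the combination and ATRA ran from -0.254 to 0.0096 when 1 library was left out, above 0 without combination replicate 1, and it was never called. Of the other single-gene values 907 kept their direction and side of the threshold, 103 passed it only under the alternative and 80 no longer passed it. KDM2B, SUV39H2 and SIRT6 with ATRA and with the combination, and KDM4A with the combination, were called under every alternative at 0.05 that could be fitted for them. SUV39H2 and SIRT6 both had identical rounded values within the untreated and within the ATRA group, so their calls with ATRA rest on groups without a visible spread. The causes of these changes were not tested. Rounding to 1 RPKM limits enzymes under 10 RPKM most, and a missed threshold does not show that levels were equal.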
